A study of Mus musculus with 6 samples.

Results

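The upstream Hippo kinases and angiomotins were followed as 10 genes named by symbol: the angiomotins Amot, Amotl1 and Amotl2, the membrane adaptor Nf2, the kinases Stk4, Stk3, Lats1 and Lats2, and their partners Sav1 and Mob1a. Of these, 9 were measured among 30175 genes on the arrays, each by the row with 1 symbol that was brightest on average, and only Amot had a second row. No row carried the symbol or gene identifier of Stk3, which is not analysed here.

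RNA came from mouse embryos of a B6C3F1 x CD1 mating, injected as zygotes and collected 72 h after injection, after 96 h of culture, at 4 days post coitum. All of them received mCherry-Trim21 mRNA with dextran beads. TRIM21 binds the Fc portion of an antibody and, as a ubiquitin ligase, marks the antibody together with its bound protein for the proteasome, the principle of Trim-away. The first group received only this mRNA, the anti-GFP group also an antibody without a target in these embryos, and in the anti-TEAD4 group the antibody recognized TEAD4, the DNA-binding factor behind trophectoderm genes. Each group was measured as 2 pools of 10 embryos (replicates a and b), with 1 array for each pool. By the sample labels the control pools were blastocysts with a normal cavity, whereas the anti-TEAD4 pools held morulae and blastocysts whose cavity was absent, small or aberrant, so that treatment and stage cannot be told apart. Nothing in the labels says that pools a and b came from separate days or matings, and p values here measure the spread between pools.

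Hippo signaling is a kinase cascade that keeps the coactivator YAP out of the nucleus. MST1 and MST2 (encoded by Stk4 and Stk3), held by the scaffold SAV1, activate LATS1 and LATS2, which work with MOB1 and phosphorylate YAP, so that it cannot join TEAD4 on DNA. In the preimplantation embryo the cascade is active in inner, apolar cells, where angiomotins at cell junctions and NF2 bring LATS to the membrane, and silent in polarized outer cells, where YAP and TEAD4 switch on trophectoderm genes such as Cdx2.

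The sequences upstream of Amot and Nf2 are shown because these were the genes that lay below every control array with anti-TEAD4, and that of Mob1a because it holds the TEAD core motif while the gene's level hardly differed between groups. They are the 250 bases before the start site in the RefSeq promoter table of GRCm38.p6, written 5′ to 3′ on the gene's strand, with the motif GGAATG (or CATTCC, the same motif on the other strand) in capitals. The Amot window lies at chrX:145487640-145487889 on the minus strand, inside the annotated gene, since its start site is 18327 bases from the gene's 5′ end. The Nf2 window is chr11:4849545-4849794 on the minus strand, and the Mob1a window chr6:83325789-83326038 on the plus strand.
Amot: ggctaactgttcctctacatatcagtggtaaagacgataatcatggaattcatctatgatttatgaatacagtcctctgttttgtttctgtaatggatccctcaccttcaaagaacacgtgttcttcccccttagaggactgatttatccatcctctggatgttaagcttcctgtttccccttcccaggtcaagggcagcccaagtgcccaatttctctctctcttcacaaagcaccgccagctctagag
Nf2: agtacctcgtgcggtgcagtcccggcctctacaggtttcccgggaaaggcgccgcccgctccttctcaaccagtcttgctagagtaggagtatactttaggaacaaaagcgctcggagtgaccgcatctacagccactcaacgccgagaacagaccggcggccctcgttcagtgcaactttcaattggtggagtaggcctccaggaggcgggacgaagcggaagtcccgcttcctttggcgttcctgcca
Mob1a: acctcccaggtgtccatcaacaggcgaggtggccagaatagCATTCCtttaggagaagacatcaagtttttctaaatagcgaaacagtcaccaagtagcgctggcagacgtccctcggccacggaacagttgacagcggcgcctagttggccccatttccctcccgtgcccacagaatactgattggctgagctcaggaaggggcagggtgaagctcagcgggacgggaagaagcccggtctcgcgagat
Neither strand of the Amot and Nf2 windows held the motif. In Mob1a it began 209 bases before the start site, in Amotl2 65 bases and in Sav1 106 bases before it. These were 3 of the 11 windows of the 9 genes with a listed promoter, and 12.6% of the upstream windows of all 32851 promoters held it. The match describes letters and not binding. The windows shown were picked by the levels of their genes, and those of Amotl2 and Sav1 are not shown. Whether the motif goes with a change in level was not tested.

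The arrays were first checked with the targeted gene and with markers of the cell lineages. Tead4 mRNA lay between 9.16 and 9.40 on the log2 scale in the 4 control arrays and at 8.44 and 8.95 with anti-TEAD4 (Trim-away acts on the protein and not on the mRNA). Trim21, whose signal includes the injected mRNA, was at 9.05 and 7.56 with mCherry-Trim21 mRNA alone, 10.16 and 10.60 after anti-GFP, and 12.11 and 11.47 after anti-TEAD4, so that both anti-TEAD4 pools lay above every control. Of 7 trophectoderm markers 6 were measured, 5 of them above the level of sensory receptor genes on every array, and their summed intensity was 270800 to 277400 AU in the controls against 35990 and 69450 AU with anti-TEAD4. The keratin genes Krt8 and Krt18 made up most of this sum, at 16.14 to 17.60 on the log2 scale in the controls and at 12.99 to 15.28 with anti-TEAD4, and Cdx2 was at 11.68 to 12.08 and at 9.73 and 10.45. Eomes was at 9.80 to 9.97 in the controls but at 8.37 and 9.79 with anti-TEAD4, Tfap2c overlapped (7.56 to 8.36 against 7.77 and 7.55), and Elf5 was near background in all arrays. The 5 inner cell mass markers summed to 86820 to 108600 AU in the controls and to 74020 and 121900 AU with anti-TEAD4, most of it from Nanog (16.08 to 16.81 over all arrays), while Sox2 was at 8.32 to 8.97 in the controls and higher, at 9.21 and 9.22, in both anti-TEAD4 pools. For the 3 primitive endoderm markers measured, of which 1 was above the receptor level on every array, the sums were 5397 to 8808 AU and 7681 and 7784 AU. Cumulus cell markers, of which only Has2 among 6 was above that level on every array, summed to 115.1 to 127.6 AU in the controls and to 176.1 and 117.3 AU with anti-TEAD4. The array of anti-TEAD4 replicate a stood apart, with a mean correlation of 0.966 with the other arrays, where the other 5 had 0.982 to 0.986, and a median of 4.50 over all rows, where the others had 4.19 to 4.29. Values are therefore given for each pool, and fold changes of the 9 genes also without this array.

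With anti-TEAD4, Amot and Nf2 were the only measured genes of this group whose arrays both lay below all 4 control arrays. Amot averaged 147 AU against 268 AU with mCherry-Trim21 mRNA alone and 230.5 AU with anti-GFP, and Nf2 averaged 161 AU against 247 and 273 AU. The kinase genes Stk4, Lats1 and Lats2, the scaffold Sav1, the LATS partner Mob1a and both angiomotin paralogs overlapped the controls. Neither Amot nor Nf2 passed an adjusted p of 0.05 (limma over all genes), nor did any other gene in any of the comparisons (0.0% of genes in each). At an unadjusted p of 0.05, Amot and Nf2 were 2 of the 9 genes in the comparison of anti-TEAD4 with both control groups, where 8.51% of all genes passed (4.44% as lower). By array order, 2 of 9 lay below all controls, as did 7.68% of all genes and 12.6% of genes brighter than the receptor level. With 9 genes, such counts rest on 2 names. In pools of whole embryos, fewer cells of a type and less RNA per cell cannot be told apart.

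Angiomotins are scaffolds of the cell junction that bind YAP and activate LATS, and in outer cells they are drawn off by apical actin. On the log2 scale Amot measured 7.79 and 8.30 in the mCherry-Trim21 mRNA pools, 7.95 and 7.74 in the anti-GFP pools, then 7.23 and 7.16 in the anti-TEAD4 pools (replicates a and b, groups in this order throughout). Both anti-TEAD4 pools lay close together, 0.51 or more below the lowest control. As linear intensities these were 268 ± 66.4, 230.5 ± 23.7 and 147 ± 5.03 AU (SD, n = 2), so that the anti-TEAD4 mean was 41.2% below that of the 4 controls. The log2 fold change against both control groups was -0.75 (SE 0.19, 95% interval -1.21 to -0.29, unadjusted p 0.00809, limma adjusted p 0.427), and 3.4% of all genes had a lower one. The dimmer row of Amot gave 7.33 and 8.20, 7.76 and 7.63, and 7.06 and 6.89. It was again lowest in the anti-TEAD4 pools, with a fold change of -0.76 on the log2 scale (SE 0.26, unadjusted p 0.0307, limma adjusted p 0.635 over all rows).

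**Figure D1:**
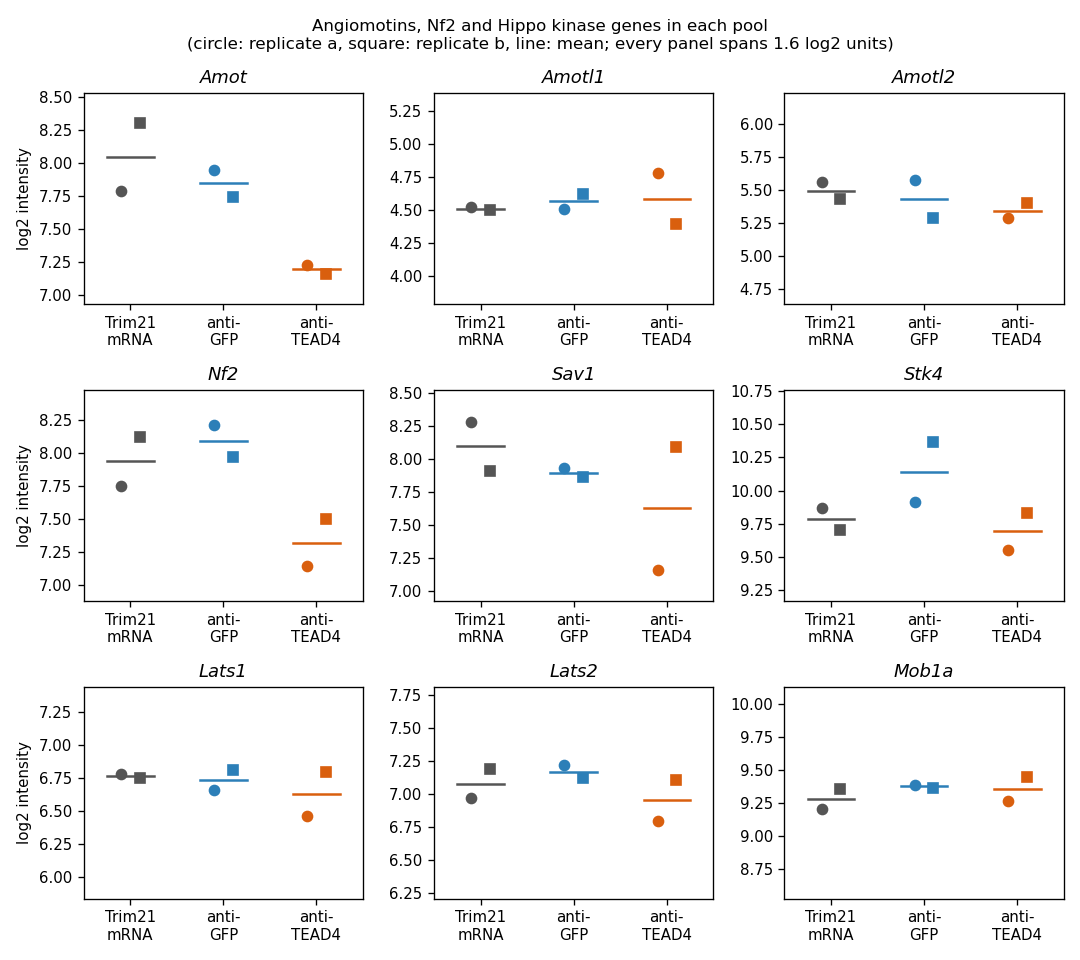
Log2 intensity (vertical axis, each panel 1.6 units high) of 9 genes in the 3 groups on the horizontal axis, with circles for replicate a, squares for replicate b and a line at the mean. Amot and Nf2 are the panels in which both anti-TEAD4 points lie below all 4 control points, and in Sav1 the anti-TEAD4 points lie 0.93 apart.

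Amotl1 encodes a junction angiomotin. Its values were 4.52 and 4.50, 4.51 and 4.62, and 4.78 and 4.39, above the 95th percentile of 1525 sensory receptor genes in the 4 control arrays and below it in both anti-TEAD4 arrays. Its level was thus near background, and its log2 fold change of 0.05 (SE 0.16) changed sign under other scalings. Amotl2, which acts beside Amot in inner cells of the mouse embryo, was at 5.56 and 5.43, 5.58 and 5.29, and 5.29 and 5.40. Its anti-TEAD4 pools were within the range of the anti-GFP pools and below the mCherry-Trim21 mRNA pools, with a log2 fold change of -0.12 against both control groups (95% interval -0.48 to 0.24). The fold change of Amot was 0.63 lower on the log2 scale than that of Amotl2. The difference between these paralogs was lowest in the anti-TEAD4 arrays, and the exact permutation test gave p 0.0667 two-sided, the smallest that 15 arrangements allow (adjusted p 0.1 over the 3 pairs computed), so the design could not reach 0.05. Amot and Amotl1 are not compared, because a level near background could not be seen to fall.

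Nf2 encodes merlin, which recruits LATS to the plasma membrane and is needed for YAP phosphorylation in inner cells. Its log2 intensities were 7.75 and 8.12 for mCherry-Trim21 mRNA, 8.21 and 7.97 for anti-GFP, then 7.14 and 7.50 for anti-TEAD4. The higher anti-TEAD4 pool was 0.25 below the lowest control pool. Linear means were 247 ± 44.5, 273 ± 32.1 and 161 ± 28.3 AU (SD, n = 2), the last 38.1% below the mean of the controls. The log2 fold change against both control groups was -0.69 (SE 0.19, 95% interval -1.16 to -0.22, unadjusted p 0.012, limma adjusted p 0.468), and 4.2% of all genes had a lower one. Without anti-TEAD4 replicate a it was -0.51, with an unadjusted limma p of 0.0537. Krt8, Krt18 and Cdx2 were lower and Trim21 was higher in the same pools, and their part in the levels of Amot and Nf2 was not tested.

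At the top of the cascade, Stk4, the gene of the kinase MST1, was at 9.87 and 9.70, 9.91 and 10.37, and 9.55 and 9.83. The highest value came from anti-GFP replicate b, and the anti-TEAD4 pools overlapped the mCherry-Trim21 mRNA pools. Its log2 fold change was -0.27 against both control groups (SE 0.19, 95% interval -0.74 to 0.20, limma adjusted p 0.674). Sav1, the scaffold that ties MST to LATS, gave 8.28 and 7.91, 7.93 and 7.86, and 7.16 and 8.09. Here the anti-TEAD4 pools disagreed: replicate a was the lowest of all 6 arrays and replicate b the second highest. The mean log2 fold change of -0.37 (SE 0.29, 95% interval -1.09 to 0.35) thus stood for neither pool. Mob1a, whose protein binds and activates LATS, was the steadiest of the 8 genes above the receptor level on every array, at 9.21 and 9.36, 9.39 and 9.37, and 9.27 and 9.45. All 6 arrays lay within 0.24, and the log2 fold change was 0.03 (95% interval -0.30 to 0.36), a value that changed sign under some alternatives.

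Lats1 and Lats2 encode the kinases that phosphorylate YAP. Lats1 was at 6.78 and 6.75, 6.66 and 6.81, and 6.46 and 6.79, with only anti-TEAD4 replicate a below the controls. Lats2 was at 6.97 and 7.19, 7.22 and 7.12, and 6.80 and 7.11, and again only replicate a of anti-TEAD4 was below every control. The log2 fold changes against both control groups were -0.13 (SE 0.15, 95% interval -0.50 to 0.25) for Lats1 and -0.17 (SE 0.15, 95% interval -0.56 to 0.22) for Lats2. The paralogs differed by 0.05 in this change (exact permutation test, p 0.8, two-sided).

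Side by side, the comparisons with each control group are given here. Only anti-GFP against mCherry-Trim21 mRNA sets an antibody without a target against none. Trim21 also differed there, at 10.16 and 10.60 against 9.05 and 7.56, so antibody and Trim21 level cannot be told apart. The comparisons share arrays, so their values are not independent. Against mCherry-Trim21 mRNA, the log2 fold change with anti-TEAD4 was -0.85 for Amot (SE 0.21, unadjusted p 0.00877, limma adjusted p 0.644). For Nf2 it was -0.62 (SE 0.22, unadjusted p 0.0329, limma adjusted p 0.715). At an unadjusted p of 0.05 these were 2 of the 9 genes, against 6.5% of all genes. Amot, Amotl2 and Nf2 did not overlap, against 12.4% of all genes and 19.4% of genes brighter than the receptor level in that direction. Against anti-GFP, Amot was at -0.65 (SE 0.21, unadjusted p 0.0256, limma adjusted p 0.717) and Nf2 at -0.77 (SE 0.22, unadjusted p 0.014, limma adjusted p 0.673). Again these were 2 of 9 at an unadjusted p of 0.05, where 6.6% of all genes passed. Below both anti-GFP arrays lay 4 genes (Amot, Nf2, Lats2 and Stk4), where 13.3% of all genes and 19.9% of brighter genes did. The count at an unadjusted p rested on single arrays: without anti-GFP replicate a only Stk4 passed (Amot p 0.123 and Nf2 p 0.0803, limma), where 4.39% of all genes did, and without anti-GFP replicate b only Nf2, where 3.24% did. Stk4 showed how much the reference mattered, with -0.45 against anti-GFP (SE 0.22) and -0.10 against mCherry-Trim21 mRNA. Between the control groups, 0 of 9 genes passed an unadjusted limma p of 0.05, where 1.09% of all genes did. Stk4 (0.36, SE 0.22) and Mob1a (0.10) were higher in both anti-GFP arrays, as were 17.4% of all genes, and Amot (-0.20) and Nf2 (0.16) overlapped. The median over the 9 genes was -0.14 for anti-TEAD4 with mCherry-Trim21 mRNA as reference, -0.22 with anti-GFP as reference and 0.06 between the controls, beside 0.07, 0.04 and 0.02 over all genes. Brighter genes were lower in anti-TEAD4 replicate a but not in replicate b, with medians of -0.18 and 0.05 against the mean of the 4 controls. The shares that follow rest on fold changes averaged over both pools. With mCherry-Trim21 mRNA as reference 54.5% of brighter genes had a log2 fold change below 0, against 37.8% of all genes and 7 of the 9. With anti-GFP as reference these were 59.3%, 43.4% and 8 of the 9. The methods' t-test, at its unadjusted threshold of 0.01, passed 0 of the 9 genes in each comparison, where it passed 0.941% of all genes for anti-TEAD4 and 0.766% for anti-GFP with mCherry-Trim21 mRNA as reference, 0.762% for anti-TEAD4 with anti-GFP, and 2.32% with both control groups.

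**Figure D2:**
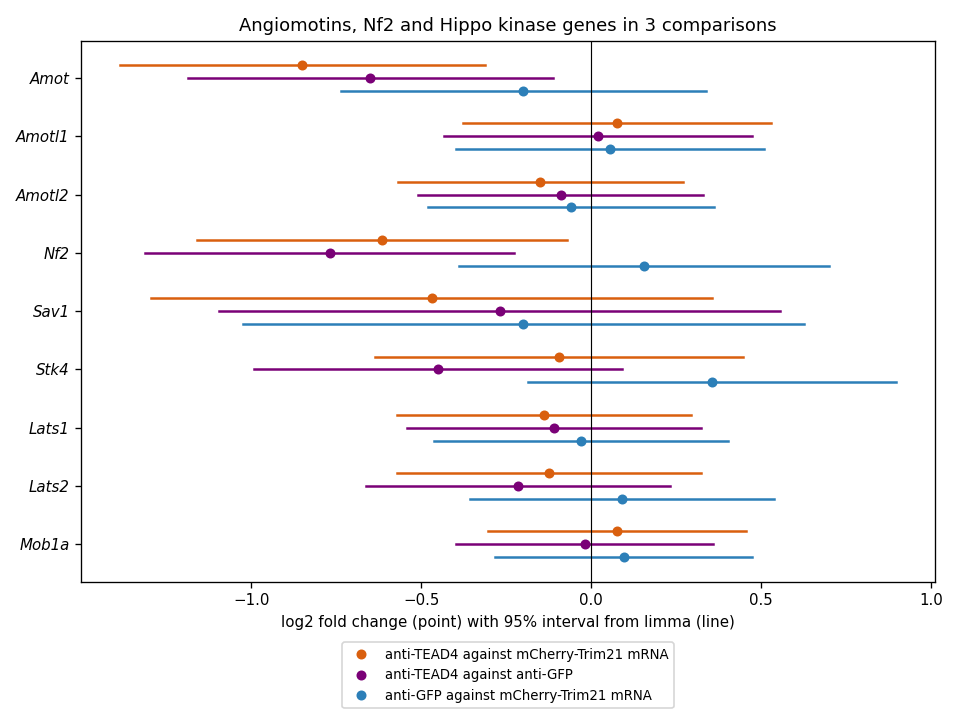
Log2 fold change (horizontal axis, points) with its 95% interval from limma (lines) for 9 genes in 3 comparisons, told apart by color. The intervals of Amot and Nf2 lie below 0 in both anti-TEAD4 comparisons and include 0 between the control groups, and all other intervals include 0.

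The anti-TEAD4 pools were then set apart from each other. Relative to the mean of the 4 controls, Amot measured -0.72 (replicate a) and -0.79 (replicate b), the most even of the lower genes. Nf2 was at -0.87 and -0.51. For Sav1 the values were -0.84 and 0.10, and for Stk4 -0.41 and -0.13. Over the 9 genes the median was -0.33 in replicate a, with 8 genes below 0, and -0.07 in replicate b, with 6 below 0. Genes brighter than the receptor level, to which 8 of the 9 belong, had medians of -0.18 and 0.05, so that replicate a was lower for bright genes in general. When anti-TEAD4 replicate b was left out, Sav1 passed the test against both control groups (limma adjusted p 0.0498), but so did 13.3% of all genes, and 1 of 9 is about that share. This fit takes the remaining pool to vary as the control pools do. Leaving out replicate a left replicate b as the only anti-TEAD4 pool. Stk4 then lay at -0.13, Sav1 at 0.10, Lats1 at 0.04, Lats2 at -0.02, Amotl2 at -0.07, Amotl1 at -0.15 and Mob1a at 0.12. Thus Stk4, Lats2 and Amotl2 were nearer to 0 than with both pools, and Sav1, Lats1 and Amotl1 changed sign.

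**Figure D3:**
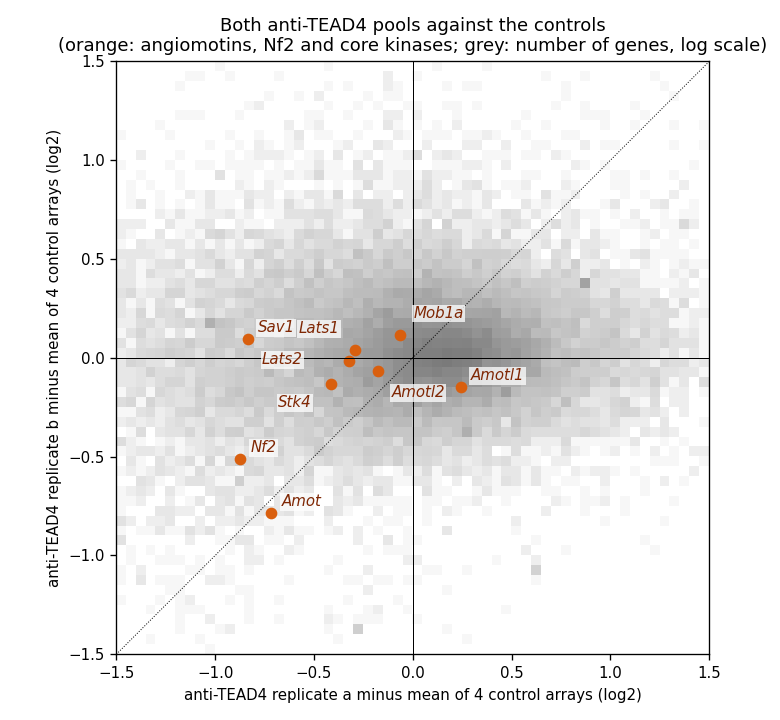
Log2 intensity minus the mean of the 4 control arrays in anti-TEAD4 replicate a (horizontal axis) and replicate b (vertical axis), with 9 genes in orange over a grey map of the number of genes on a log scale, where 1207 genes beyond 1.5 in either direction are not drawn. Amot and Nf2 lie in the lower left, and Sav1 is low on the horizontal axis only.

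**Figure D4:**
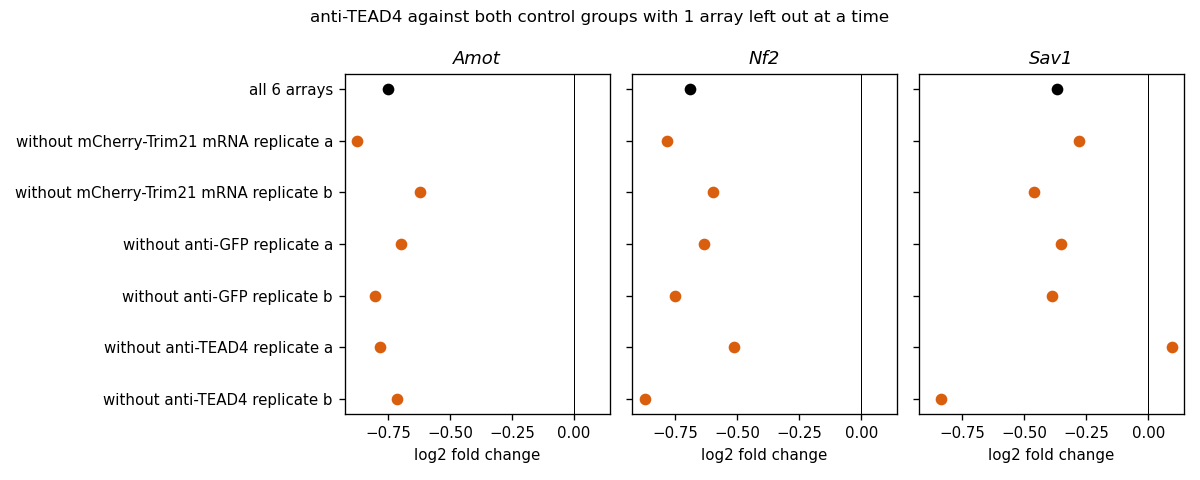
Log2 fold change of anti-TEAD4 against both control groups (horizontal axis) for Amot, Nf2 and Sav1 with all 6 arrays (black) and with each array left out in turn (orange). Amot stays between -0.88 and -0.62 and Nf2 between -0.87 and -0.51, while Sav1 ranges from -0.84 to 0.10.

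Further regulators of the same kinases were read from lists of 50 genes, of which 43 were measured. In the comparison of anti-TEAD4 with both control groups none passed an adjusted p of 0.05 (limma). At an unadjusted p of 0.05, 8 were lower and 1 was higher, beside 4.44% lower and 4.06% higher among all genes, and the median log2 fold change was -0.18, beside 0.06 over all genes. Taken by pool, this median was -0.33 (replicate a) and -0.01 (replicate b), so it rested on replicate a. The counts below are of genes whose anti-TEAD4 arrays both lay beyond all 4 controls, to be read beside 7.68% below and 11.4% above over all genes (12.6% and 7.73% of genes brighter than the receptor level). Of 10 further kinases and MOB proteins 2 lay below all controls and 1 above, the latter about the share of all genes. Taok1, whose product phosphorylates MST, was at 9.75 to 10.05 in the controls and at 9.14 and 9.53 with anti-TEAD4 (log2 fold change -0.61, SE 0.16). Taok2, its paralog, was at 6.97 to 7.28 and at 6.31 and 6.70 (-0.65, SE 0.18). Stk38l, a kinase of the LATS family, was higher, at 8.96 to 9.34 and at 9.36 and 9.48 (0.25, SE 0.14).

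Of 12 inputs from membrane and polarity proteins 1 lay below all controls, about the share of all genes (7.68%). This was Wwc1, the gene of KIBRA, a partner of merlin, at 6.76 to 6.96 in the controls and at 6.54 and 6.35 with anti-TEAD4 (-0.42, SE 0.14). A further list of 12 genes held LIM proteins and STRIPAK subunits, which restrain LATS and MST, and Rassf6, near background at 3.82 to 3.94. Of these 12, 2 lay below all controls, close to the 12.6% of brighter genes, and none above. Limd1, a LIM protein that holds LATS at junctions, was at 5.41 to 6.18 in the controls and at 4.54 and 5.29 (-1.02, SE 0.30). Slmap, which brings the STRIPAK phosphatase to MST, was at 8.38 to 8.69 and at 7.70 and 8.31 (-0.59, SE 0.21).

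The next list held 9 genes of tankyrases and ubiquitin enzymes, most of them ligases. Of these, 4 lay below all controls, beside 7.68% of all genes, and 1 above, beside 11.4%. In replicate b alone 6 of them lay below all controls and in replicate a alone 5, where 18.5% and 28.7% of all genes did. Nedd4, a ligase for proteins with PY motifs, was at 8.98 to 9.26 in the controls and at 7.63 and 7.97 with anti-TEAD4. Its log2 fold change of -1.32 (SE 0.15, unadjusted p 0.0002, limma adjusted p 0.18) was the lowest of the regulators read here. Itch, a related ligase that targets LATS1, was at 8.37 to 8.66 and at 7.0 and 8.06 (-1.0, SE 0.30), with replicate a far below replicate b. Tnks2, a tankyrase that marks angiomotins for degradation, was higher, at 10.31 to 10.53 and at 10.85 and 10.78 (0.40, SE 0.13). Among the 10 nuclear effectors (YAP, TAZ, TEAD and VGLL genes), 6 lay below all controls (7.68% of all genes, 12.6% of brighter ones), with Vgll3 at 6.26 to 6.58 in the controls and 5.54 and 5.16 with anti-TEAD4, and Vgll4 at 5.66 to 6.06 and 4.79 and 5.58.

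**Figure D5:**
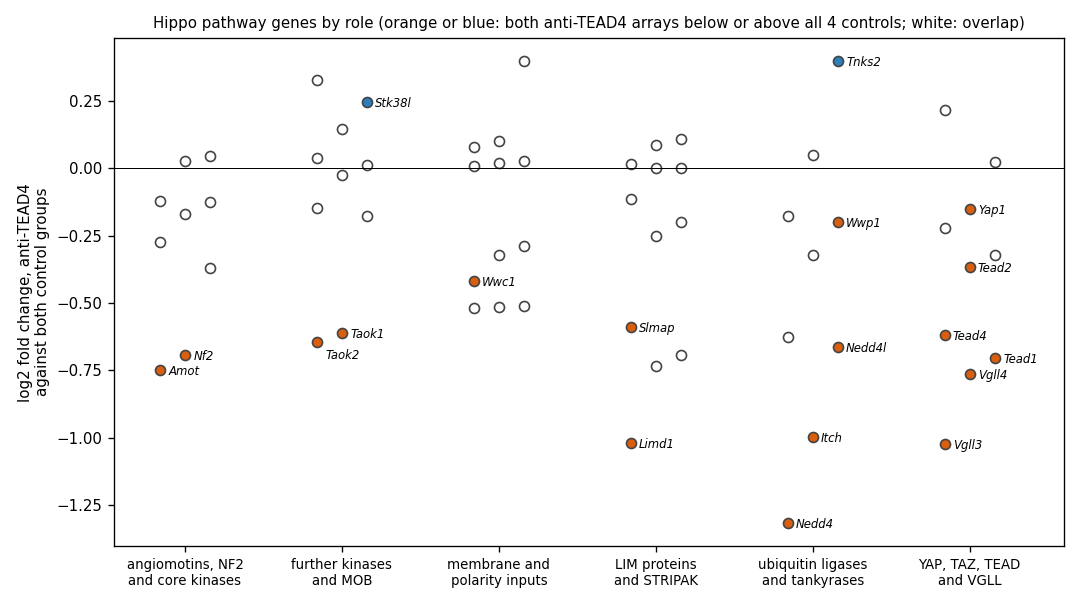
Log2 fold change of anti-TEAD4 against both control groups (vertical axis) for each measured gene, grouped by role on the horizontal axis, with genes named where both anti-TEAD4 arrays lay below (orange) or above (blue) all 4 control arrays. Nedd4 is the lowest at -1.32, and among the angiomotins, Nf2 and core kinases only Amot at -0.75 and Nf2 at -0.69 are orange.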

How the data were processed

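RNA of 6 pools of 10 embryos was hybridized to Affymetrix Mouse Transcriptome Arrays 1.0. The authors applied robust multiarray averaging in the Affymetrix Expression Console and deposited log2 intensities. The deposited column of mCherry-Trim21 mRNA replicate a holds 1 other value, too large for a log2 intensity, and its row was left out of 65956. Linear intensities (AU) were obtained by raising 2 to each value. Depth does not apply to arrays, and their number limits the precision.

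Of the rows used, 30637 carried 1 symbol, 2176 several and 33142 none, and each gene took its brightest row with 1 symbol. With limma 3.58.1, all 6 arrays entered 1 model with a mean for each of the 3 groups (R 4.3.3; 3 residual and 2.52 prior degrees of freedom), followed by Benjamini-Hochberg adjustment over 30175 genes and a threshold of 0.05. The comparisons were anti-TEAD4 and anti-GFP with mCherry-Trim21 mRNA, anti-TEAD4 with anti-GFP, and anti-TEAD4 with the mean of both control groups. Paralog pairs were compared by exact permutation (scipy 1.17.1). The analysis of variance and the t-test that the methods name, the latter on linear intensities, were alternatives, as were 1 array left out, the replicate letter as a block, another scaling, filter, choice of rows, moderation or samples in the fit. A filter that kept genes above the mean 95th percentile of sensory receptor genes (4.57) was added after seeing the data, as were the values of the further lists in each anti-TEAD4 array alone.

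All measured genes of the group are named, and of each further list up to 2 in each direction, with the largest change among genes whose anti-TEAD4 arrays lay beyond all 4 controls. Members and lists were chosen with earlier results of these data known.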

Additional observations from a re-analysis of the deposited data

How the results depend on the processing

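The 17 alternatives for anti-TEAD4 against both control groups included tests other than limma. Over them Amot kept its sign (log2 fold change -0.88 to -0.62), as did Nf2 (-0.87 to -0.51), and neither reached an adjusted p of 0.05. Sav1 ranged from -0.84 to 0.10 and Lats1 from -0.29 to 0.04, and Amotl1 and Mob1a, near 0, changed sign under some settings. With 1 array left out, the count of the 9 genes that passed an adjusted p of 0.05 ranged from 0 to 1 in that comparison (Sav1 without anti-TEAD4 replicate b), and the count of all genes from 0 to 4024, from 0 to 2846 against mCherry-Trim21 mRNA and from 0 to 2792 against anti-GFP, the highest each time without anti-TEAD4 replicate b. With Benjamini-Hochberg adjustment the methods' t-test called 9 genes with anti-TEAD4 and 10 with anti-GFP against mCherry-Trim21 mRNA and 5 for anti-TEAD4 against anti-GFP. At an unadjusted p of 0.05, 0 of the 9 genes passed against mCherry-Trim21 mRNA without its replicate b (2.94% of all genes did), and Amot but not Nf2 passed without either anti-GFP array (4.74%) or anti-TEAD4 replicate a (8.76%). Centring each array on its median moved the median over all genes by -0.13 against both control groups, and quantile normalization by -0.10. Under these settings Amot was at -0.88 and -0.73 and Nf2 at -0.83 and -0.68. The differences between replicates a and b correlated over genes at -0.51 between the control groups. The value was -0.25 between anti-GFP and anti-TEAD4, and 0.21 between mCherry-Trim21 mRNA and anti-TEAD4. Both negative values involved anti-GFP, so the letters as given did not pair all groups, but pairing in another order is not excluded. With the letter as a replicate block 0 of the 9 genes and 0 genes in all passed an adjusted p of 0.05, as with the anti-GFP letters crossed. At an unadjusted limma p of 0.05 against both control groups, 2567 genes passed in the main fit. The block by letter gave 2329 and the crossed block 3401, with Amot and Nf2 among them each time. Whether pools shared a day or batch was not tested. A fit with only the groups compared was not run for both control groups together, which already uses all arrays.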
